A study of Homo sapiens with 10 samples.

Results

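The binding sites of TTF-1 in H441 lung adenocarcinoma cells were compared between 0 h and 1.5 h. TTF-1 sites were taken from 2 deposited lists of chromatin immunoprecipitation with sequencing (ChIP-seq), with 31083 peaks at 0 h and 21284 at 1.5 h. A further 7 peaks of the 1.5 h list, an isolated cluster on chromosome 15, were left out, and they are treated at the end of the description of the first comparison. The 52367 peaks retained are part of 79601 peaks in the 7 called lists of the series. The whole series has 10 samples, of which 3 are input DNA, and maps Smad3, Smad4 and TTF-1 in H441 cells and Smad3 in A549 cells.

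Both TTF-1 libraries came from H441 cells that are labelled positive for TTF-1, with the same antibody and the same limit of 1% on the false discovery rate of peaks. The times are those of the sample titles. The treatment described for all cells of the series is 1 ng/ml TGF-β3 for 1.5 h, so that the cells of the 0 h library had not been treated follows from the title alone. No siRNA is named for either TTF-1 library. The lists set beside them are Smad3 in H441 cells with a control siRNA (siControl, 8941 peaks) or with TTF-1 depleted by siRNA (siTTF-1, 14145 peaks), Smad4 in siTTF-1 cells (1605 peaks) and Smad3 in A549 cells, which are labelled negative for TTF-1 (2535 peaks). Per the labels, the H441 Smad3 and TTF-1 lists share an input library. The Smad4 list and the A549 list each had another input, and limits of 10% and 5%.

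TTF-1, the product of NKX2-1, is a homeodomain transcription factor that sets lung epithelial identity. In the distal lung it drives the genes of surfactant and secretory proteins, and many lung adenocarcinomas keep its expression. TGF-β ligands activate receptor kinases that phosphorylate Smad2 and Smad3, which bind Smad4 and enter the nucleus, where they occupy DNA together with factors of the cell type.

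Each time had 1 library, so no difference between 0 h and 1.5 h can be set against replicate spread, and no test between the times was possible. The peak lists do not give the depth of sequencing, and a shorter list cannot be told apart from less binding. Shares carry exact Clopper-Pearson 95% intervals, which cover counting error only. Positions are on hg18 and count from 1. Gene names, exons, motifs and sequences of the sites were not analysed here. Peaks are given by position, and none is assigned to a lung epithelial gene.

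The first comparison asked which TTF-1 sites were called at both times, with at least 1 bp in common. Nearly all TTF-1 sites of the 1.5 h list were already sites at 0 h, and the 0 h list held many more. Over all peaks, 65.3% of the 0 h list (20303 of 31083) and 95.8% of the 1.5 h list (20399 of 21284) were called at the other time. This left 10780 peaks called only at 0 h and 885 called only at 1.5 h. In base pairs, the 0 h peaks covered 19.6 Mb and the 1.5 h peaks 14.25 Mb, of which 13.0 Mb were common to both. The common part was 66.4% of the 0 h bases and 91.4% of the 1.5 h bases.

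The correspondence was mostly of 1 peak to 1 peak. Exactly 19815 pairs consisted of a 0 h peak and a 1.5 h peak that met no other peak. At 0 h, 224 peaks met 2 peaks of the 1.5 h list and 4 met 3 peaks, while 136 peaks at 1.5 h met 2 peaks of the 0 h list. The 4 TTF-1 regions with 1 peak at 0 h and 3 at 1.5 h were found on chromosome 9 (83362901 to 83365049), chromosome 10 (5577751 to 5581499), chromosome 2 (219468351 to 219469849) and chromosome 4 (175787101 to 175788349). All 4 had a Smad3 peak in siControl and in siTTF-1 cells.

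Each deposited peak has a number that runs through its list from 1. What it stands for is not stated, and low numbers went with wide peaks (Spearman correlation -0.631 over 31083 peaks at 0 h and -0.549 over 21284 at 1.5 h, each within 1 library). TTF-1 sites with low numbers were called at both times with few exceptions. When the 0 h list was cut by number into 5 equal strata, 6215 of 6217 peaks of the first were called at 1.5 h. The share was 96.5% (95% interval 95.99 to 96.9) in the second, 74.1% (73.0 to 75.2) in the third, 39.4% (38.2 to 40.6) in the fourth and 16.7% (15.8 to 17.6) in the last. In the 1.5 h list all 4257 peaks of the first stratum were called at 0 h, and in the last stratum 85.9% (84.8 to 86.9). Sites called at 1 time only therefore stood late in both lists, and at the end of the list the 2 times differed most. The 0 h list is the longer one, so its last numbers have no counterpart in the 1.5 h list. With the 0 h list shortened by number to the length of the other, 85.05% of 0 h and 85.8% of 1.5 h peaks were called at the other time.

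**Figure D1:**
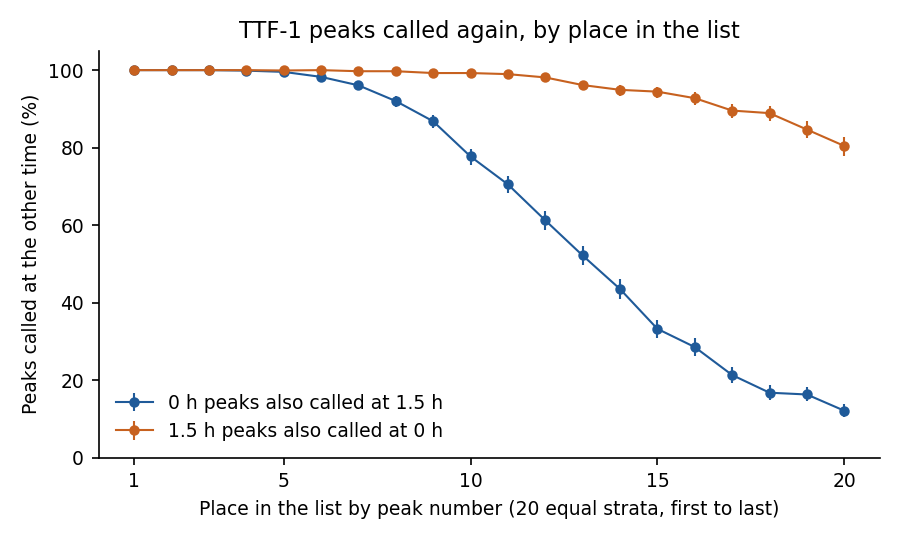
Share of TTF-1 peaks called at the other time (vertical axis, percent) in 20 equal strata of the peak number, from the first to the last (horizontal axis), for the 0 h list (blue) and the 1.5 h list (orange). Points are shares with exact 95% intervals. The 0 h curve drops to 12.2% in its last stratum, while the 1.5 h curve stays above it throughout the later strata. The lists are of unlike length, with 31083 peaks at 0 h and 21284 at 1.5 h.

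The order of the sites was similar but not the same at both times. Of the first 100 peaks at 0 h, 70 were among the first 100 at 1.5 h. Of the first 1000, 784 were in common, and of the first 10000, 8440. Over the 1 to 1 pairs, the Spearman correlation of the 2 peak numbers was 0.843 and that of the 2 widths 0.848 (19815 pairs, which share 1 input library). With the chromosome 15 cluster left out, the first sites of both lists were called at both times. Number 1 at 0 h, on chromosome 2 (216271401 to 216272099, 699 bp), was number 4 at 1.5 h (749 bp). Number 2 at 0 h, on chromosome 10 (8418601 to 8419449), was number 6 at 1.5 h. Number 3 at 0 h, on chromosome 1 (58867051 to 58868149, 1099 bp), was number 10 at 1.5 h (1399 bp). All 3 had a Smad3 peak in siControl cells and none in siTTF-1 cells.

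The first TTF-1 peaks by number that were missing at 1.5 h were number 5422 on chromosome 3 (103383651 to 103384149), number 5734 on chromosome 19 (52145651 to 52146099) and number 6585 on chromosome 17 (54729401 to 54729849). The nearest 1.5 h peaks began 1001, 25001 and 129601 bp away. The second had Smad3 peaks in both H441 conditions and the others had no Smad peak. Outside the left-out cluster, the first peak missing at 0 h was number 4947 on chromosome 8 (55413751 to 55414199). Next came number 7065 on chromosome 1 (23300701 to 23300949) and number 7094 on chromosome 8 (134874651 to 134875149). The last 2 had Smad3 peaks in both H441 conditions. Few unshared peaks were near misses: 4.81% of the peaks called only at 0 h (519) and 13.45% of those called only at 1.5 h (119) had a peak of the other time within 500 bp. Shared peaks had a further peak of the other time within 500 bp in 6.73% (0 h peaks) and 8.57% (1.5 h peaks) of cases. The share was thus lower for 0 h only peaks than for shared 0 h peaks. It was higher for 1.5 h only peaks than for shared 1.5 h peaks. The median gap to the nearest peak of the other time was 19426 bp for peaks only at 0 h and 9601 bp for peaks only at 1.5 h. For shared peaks, the nearest further peak of the other time lay at medians of 13551 bp (0 h peaks) and 8351 bp (1.5 h peaks).

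The left-out cluster held peaks number 1 and number 2 of the deposited 1.5 h list, and its 7 peaks reached number 602. None of them overlapped a 0 h peak or any Smad peak. With them the list holds 21291 peaks, and the share called at 0 h is 95.8% as before.

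Peak widths differed between shared and unshared sites. Shared TTF-1 peaks had a median of 649 bp at 0 h (quartiles 499 to 899) and 599 bp at 1.5 h (449 to 849). Peaks called at 1 time only were narrower, with medians of 399 bp for 0 h only and 349 bp for 1.5 h only. Widths of at least 1000 bp were found in 16.5% of the shared 0 h peaks and 13.7% of the shared 1.5 h peaks, but in 1.26% of those only at 0 h and 1.47% of those only at 1.5 h. The difference was smaller at like peak numbers. In the last stratum of the 0 h list the medians were 399 bp (shared) and 349 bp (0 h only), and in the last stratum of the 1.5 h list 449 and 349 bp. From the widest to the narrowest of 5 equal width strata, the share of 0 h peaks called at 1.5 h ran from 94.8% (94.2 to 95.3) to 27.7% (26.6 to 28.8).

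**Figure D2:**
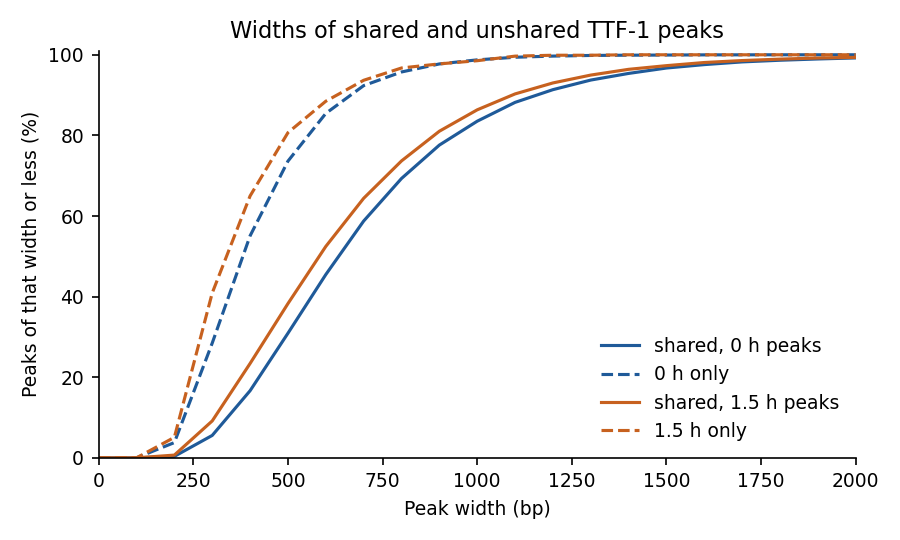
Cumulative share of TTF-1 peaks (vertical axis, percent) by width in bp (horizontal axis), for shared peaks (solid) and peaks called at 1 time only (dashed) at 0 h (blue) and 1.5 h (orange). Both dashed curves lie to the left of the solid curves, with medians of 399 and 349 bp against 649 and 599 bp.

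The widest shared 0 h peak, on chromosome 3 (158327651 to 158331549, 3899 bp), was matched by a peak of 3799 bp at 1.5 h. Next came the chromosome 10 region at 5577751, of 3749 bp, which was split in 3 at 1.5 h, and a peak on chromosome 14 (61060601 to 61064049, 3449 bp), which was split in 2. The last had peaks of all 4 Smad lists. A peak of the same 3799 bp at 1.5 h, on chromosome 10 (116096301 to 116100099), joined 2 peaks of the 0 h list, and no 1.5 h peak was wider. The widest peak seen at 0 h only, on chromosome 22 (35058251 to 35060049), had 1799 bp, and the next, on chromosome 10 (75317651 to 75319349), had 1699 bp. A 1.5 h peak lay 201 bp from the edge of each. The third, on chromosome 12 (13266401 to 13267999, 1599 bp), was 12401 bp from one. At 1.5 h only, the widest were on chromosome 7 (92233501 to 92234849, 1349 bp), chromosome 1 (184998301 to 184999499, 1199 bp) and chromosome 16 (65104551 to 65105699, 1149 bp). The last of these 3 had all 4 Smad peaks.

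Within the 19815 pairs, TTF-1 peaks stayed in place and were slightly narrower at 1.5 h. The centres were a median of 25 bp apart, 88.6% lay within 100 bp and 2.69% were over 200 bp apart, on lists whose edges move in steps of 50 bp. Start and end were identical in 2744 pairs. The 0 h peak was the wider one in 10574 pairs (53.4%), the 1.5 h peak in 5155 (26.0%), and 4086 pairs had equal widths. The median difference, 1.5 h minus 0 h, was -50 bp (quartiles -100 and 50). It was -50 bp in each of the first 4 of 5 strata of the 0 h number and 0 bp in the last.

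**Figure D3:**
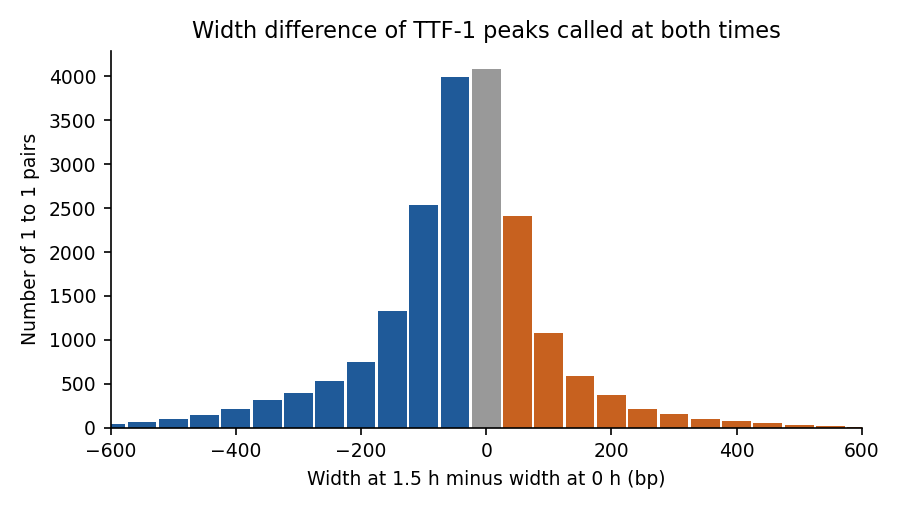
Number of 1 to 1 pairs (vertical axis) by the width at 1.5 h minus the width at 0 h in bp (horizontal axis, shown from -600 to 600), with pairs wider at 0 h in blue, equal pairs in grey and pairs wider at 1.5 h in orange. The pairs wider at 0 h (10574) outnumber those wider at 1.5 h (5155).

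The pairs that narrowed most lay on chromosome 1 (216824501 to 216826099 at 0 h, 1599 bp, and 249 bp at 1.5 h) and on chromosome 2 (98851651 to 98853349 at 0 h, 1699 bp, and 349 bp at 1.5 h). A further pair on chromosome 2 (201383251 to 201384849) went from 1599 to 399 bp. The pairs that widened most were on chromosome 3 (173303451 to 173305249 at 1.5 h), from 749 to 1799 bp, on chromosome 1 (174752451 to 174753899), from 499 to 1449 bp, and on chromosome 9 (98660051 to 98662399), from 1449 to 2349 bp. The chromosome 9 site was number 8 at 0 h and number 5 at 1.5 h, and carried Smad3 peaks in both H441 conditions and a Smad4 peak.

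The next comparison set the TTF-1 classes beside the Smad lists, which had no part in defining them. TTF-1 sites called only at 0 h rarely had a Smad peak, and those called only at 1.5 h had one more often. Over all TTF-1 peaks, a Smad3 siControl peak was present at 25.1% of the 0 h list and 34.3% of the 1.5 h list. It was present at 6.41% (5.96 to 6.89; 691 of 10780) of the peaks only at 0 h and 35.0% (34.4 to 35.7) of the shared 0 h peaks. The share was 19.9% (17.3 to 22.7; 176 of 885) for peaks only at 1.5 h and 34.9% (34.2 to 35.6) for shared 1.5 h peaks. Smad3 siTTF-1 peaks were at 28.5% of all 0 h and 35.9% of all 1.5 h peaks, with 14.2% (13.5 to 14.9) for 0 h only and 34.6% (31.4 to 37.8) for 1.5 h only. Smad4 siTTF-1 peaks were at 2.56% and 3.54% of the whole lists, at 0.900% (0.730 to 1.10) of the peaks only at 0 h and at 5.42% (4.03 to 7.13; 48 peaks) of those only at 1.5 h. Smad3 peaks of A549 cells were at 3.94% and 5.04% of the whole lists, at 1.77% (1.53 to 2.04) for 0 h only and 4.63% (3.35 to 6.23) for 1.5 h only. When sites counted as shared only with centres within 200 bp, the Smad3 siControl share was 9.71% for 0 h only and 33.2% for 1.5 h only, the latter near the 34.4% of shared 1.5 h peaks. That rule counted 91.1% of 1.5 h peaks as shared, against 95.8% with 1 bp, so its 1.5 h only class is a larger set. No peak of any of the 4 Smad lists was present at 84.4% of the 0 h only sites and 62.9% of the 1.5 h only sites, against 56.3% of the shared 0 h and 56.4% of the shared 1.5 h peaks.

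Unshared peaks stand late in their lists, where Smad peaks are scarcer, so shared peaks were weighted to the same make-up of 5 strata of the peak number. At these numbers, 21.6% (20.2 to 22.9) of shared 0 h peaks had a Smad3 siControl peak, and the 0 h only share was 0.297 times that. For Smad3 siTTF-1, Smad4 and A549 the ratios of 0 h only to shared peaks were 0.440, 0.272 and 0.363. In the 1.5 h list without weighting, only the Smad4 share was higher for 1.5 h only than for shared peaks (5.42% against 3.46%). It was lower for Smad3 siControl (19.9% against 34.9%), Smad3 siTTF-1 (34.6% against 35.95%) and A549 (4.63% against 5.05%). The last 2 had overlapping intervals. With weighting, all 4 ratios for the 1.5 h list lay above 1. Shared 1.5 h peaks of the same numbers had a Smad4 peak in 1.66% of cases (1.38 to 1.93), so the 1.5 h only share was 3.28 times as high. The ratios were 1.38 for Smad3 siTTF-1, 1.35 for A549 and 1.23 for Smad3 siControl. This weighting was added after the data were seen, as were the comparisons by change of place and by group size below. When width in place of number set the strata, the Smad3 siControl ratio at 1.5 h turned to 0.912, while those of Smad3 siTTF-1 (1.24), Smad4 (3.14) and A549 (1.54) stayed above 1. The interval of the A549 share at 1.5 h only overlapped that of its shared peaks (3.02 to 3.83) in strata of number.

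**Figure D4:**
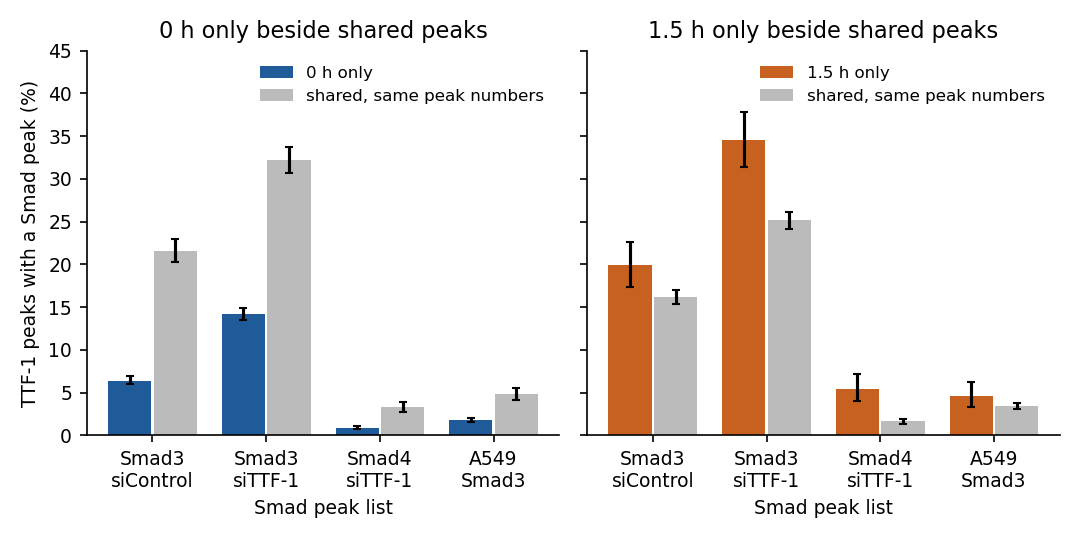
Share of TTF-1 peaks with a Smad peak (vertical axis, percent) for 4 Smad lists (horizontal axis), for peaks called only at 0 h (left, blue) and only at 1.5 h (right, orange), each beside shared peaks weighted to the same 5 strata of peak number (grey). Bars are shares with 95% intervals. All 4 blue bars lie below the grey ones (Smad3 siControl 6.41% against 21.6%), while the orange Smad4 bar (5.42%) lies above its grey bar (1.66%).

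Read in the other direction, TTF-1 sites of the 0 h list that had a Smad3 siControl peak were called again at 1.5 h in 91.1% of cases (90.5 to 91.8), against 56.7% (56.0 to 57.3) of those without and 65.3% of all. The first stratum left no room for a difference. In the third stratum the shares were 89.0% (87.0 to 90.7) with and 70.7% (69.4 to 71.9) without a Smad3 siControl peak, in the fourth 67.0% (63.5 to 70.4) and 35.7% (34.4 to 37.0), and in the last 43.6% (39.3 to 48.0) and 14.2% (13.3 to 15.1). In that last stratum the Smad4 list gave 40.9% (30.5 to 51.9) and 16.3% (15.4 to 17.3), and A549 Smad3 gave 32.9% (25.6 to 40.9) and 16.25% (15.3 to 17.2). Over the whole 1.5 h list, peaks with a Smad3 siControl peak had been called at 0 h in 97.6% of cases (97.2 to 97.9). The share was 94.9% (94.55 to 95.3) for those without, a difference in the same direction but not matched for place in the list. Within strata of the 1.5 h list the direction was the reverse. The shares with and without Smad3 siControl were 98.35% and 99.1% in the third stratum and 93.0% and 94.96% in the fourth, with overlapping intervals. In the last stratum of the 1.5 h list, peaks with and without Smad3 siControl had been called at 0 h in 84.4% (81.2 to 87.3) and 86.1% (85.0 to 87.2) of cases, and the intervals overlapped. In that stratum, peaks with a Smad3 siTTF-1 peak had been called in 81.0% of cases (78.5 to 83.3) and peaks without in 87.5% (86.3 to 88.6). Those with Smad4 had been called less often than those without, at 70.15% (57.7 to 80.7) of 67 peaks against 86.15% (85.1 to 87.2), and in the fourth stratum at 79.6% (70.8 to 86.8) of 108 peaks against 94.96% (94.2 to 95.6).

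All 4 Smad peaks were carried by 20 sites called only at 0 h (0.186%), 14 called only at 1.5 h (1.58%), 251 shared 0 h peaks (1.24%) and 252 shared 1.5 h peaks (1.24%). The first of the 14 by number lay on chromosome 19 (18631801 to 18632749, number 8978), chromosome 20 (42432551 to 42433099, number 9422) and chromosome 1 (190675051 to 190675949, number 10853), with no 0 h peak within 36801, 67501 and 35851 bp. The first of the 20 lay on chromosome 20 (55706251 to 55707099, number 14230). These were chosen after their values were seen. The only Smad4 peak of siControl cells met a TTF-1 peak of 949 bp at both times, on chromosome 1 (79069701 to 79070649 at 0 h), at number 14228 of the 0 h list and 10219 of the 1.5 h list.

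Among TTF-1 sites called at both times, those that stood earlier in the 1.5 h list than in the 0 h list carried Smad peaks more often than those that stood later. For this the pairs were ranked by peak number at each time. Places are given in percent of the 19815 pairs, and the median change of place was 8.65. Pairs were cut into 3 strata by their mean place, and each stratum into 3 equal parts by the change of place. In the first stratum a Smad3 siControl peak was present at 61.2% (59.1 to 63.2; 1347 of 2202) of the pairs that moved earlier and 44.4% (42.3 to 46.5; 977 of 2201) of those that moved later, at median mean places of 20.7 and 21.8. In the middle stratum the shares were 38.4% (36.4 to 40.5) and 20.45% (18.8 to 22.2), and in the last 23.3% (21.55 to 25.1) and 12.0% (10.7 to 13.4). The Smad4 shares were 7.63% (6.56 to 8.82) and 2.27% (1.69 to 2.98) in the first stratum, 5.54% (4.62 to 6.58) and 1.18% (0.773 to 1.73) in the middle one and 3.815% (3.05 to 4.70) and 1.045% (0.663 to 1.56) in the last. None of these pairs of intervals overlapped. The part with little change in the first stratum had a Smad3 siControl peak in 63.4% of pairs (61.35 to 65.4), an interval that overlapped that of the earlier pairs, at a median mean place of 8.49. Mean places were thus unlike those of the outer parts there, and only the outer parts are set side by side. The ratio of earlier to later pairs was 3.36 to 4.69 for Smad4, 1.38 to 1.94 for Smad3 siControl, 1.50 to 1.78 for Smad3 siTTF-1 and 1.49 to 2.30 for A549 Smad3. Median width differences moved with the place, at 0 bp in the earlier and -50 bp in the later pairs of every stratum, and their part in these shares was not tested.

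**Figure D5:**
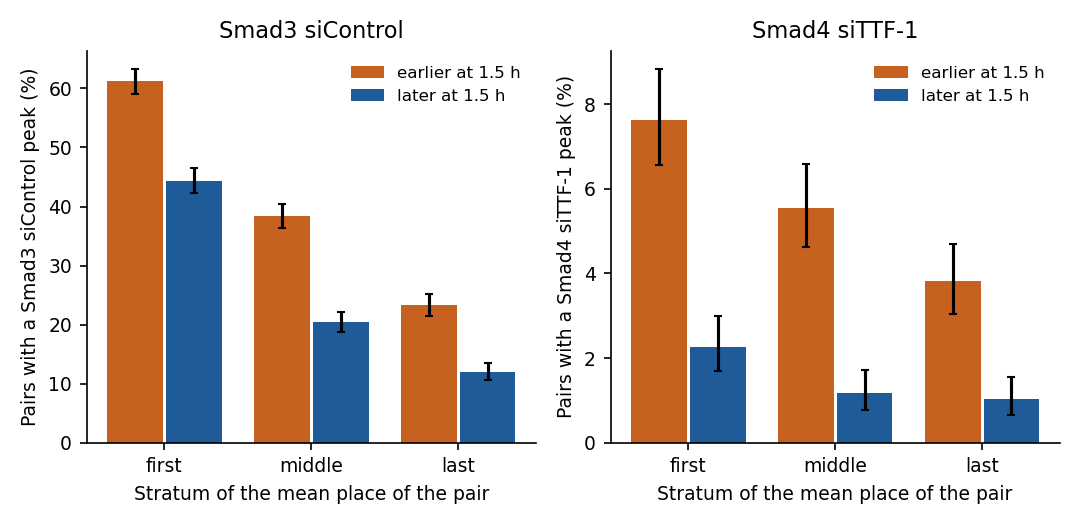
Share of 1 to 1 TTF-1 pairs (vertical axes, percent) with a Smad3 siControl peak (left) or a Smad4 siTTF-1 peak (right), for pairs earlier in the 1.5 h list (orange) and later in it (blue), in 3 strata of the mean place of the pair (horizontal axis). Bars are shares with exact 95% intervals. The orange bar is the higher one in every stratum, for instance 7.63% against 2.27% for Smad4 in the first.

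The widths gave the same order, but they are correlated with the peak numbers and are no separate line of evidence. Unlike the shares above, those by width were not matched for place in the lists. TTF-1 pairs with a Smad4 peak were wider at 1.5 h in 297 of 681 cases (43.6%) and wider at 0 h in 34.4%, whereas pairs without were wider at 1.5 h in 25.4% and at 0 h in 54.0%. With an A549 Smad3 peak, 36.6% were wider at 1.5 h, against 25.5% without. With a Smad3 siControl peak the share was 31.6%, against 23.05% without. The largest moves to an earlier place were on chromosome 11 (117998351 to 117999449 at 1.5 h), from number 24091 and 349 bp to number 674 and 1099 bp, and on the X chromosome (106701601 to 106702249), from number 21381 to 2912. The first had Smad3 peaks in both H441 conditions, and the second had all 4 Smad peaks. The next, on chromosome 2 (74467801 to 74468699), from number 19524 to 2343, had none. The largest moves to a later place were on the X chromosome (133550451 to 133551099 at 0 h), from number 3550 to 20827, and on chromosome 3 at 150399051 (number 5746 to 20621) and 96162751 (number 4614 to 18864). None of these 3 had a Smad peak. These pairs were named after their values were seen.

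TTF-1 sites lay in groups, and the last comparison asked whether a site in a group was called again more often than a lone one. With gaps of up to 10 kb, 14955 of the 0 h peaks stood alone and 2300 stood in 381 groups of 5 or more. Lone peaks were called at 1.5 h in 61.8% of cases (61.0 to 62.6), peaks in groups of 2 in 67.6% (66.6 to 68.7), of 3 to 4 in 69.2% (68.0 to 70.4) and of 5 or more in 70.4% (68.5 to 72.25). By stratum of the peak number, the intervals of lone peaks and of groups of 5 or more did not overlap in the fourth and overlapped in the others. In the third stratum the shares were 73.3% (71.6 to 74.8) for lone peaks and 73.4% (69.2 to 77.3) for groups of 5 or more, and in the fourth 36.8% (35.1 to 38.5) and 44.5% (39.55 to 49.6). In the last they were 14.7% (13.5 to 15.96) and 18.6% (14.9 to 22.8). Groups of 3 to 4 gave 43.5% (40.6 to 46.5) in the fourth and 20.55% (18.15 to 23.1) in the last. Both of these intervals lay above those of lone peaks, and in the earlier strata they overlapped. Smad3 siControl peaks moved with group size, from 20.1% of lone peaks to 35.3% of peaks in groups of 5 or more, and their part in the difference was not tested.

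The groups with the most members differed in how many were called again: the 16 groups of at least 10 held 184 peaks at 0 h, of which 134 (72.8%) were called at 1.5 h, and the fewest called again was 5 of 10, on chromosome 9 (129358201 to 129386199). A 48749 bp region of chromosome 22 (35077201 to 35125949) held 16 TTF-1 peaks at 0 h, of which 12 were called at 1.5 h and 7 had a Smad3 siControl peak. A region of chromosome 15 (38124151 to 38183649) held 15, with 14 called again and 10 with a Smad3 siControl peak. A region of the X chromosome (64804951 to 64843649) held 13, with 10 called again and none with a Smad3 siControl peak. At the other extreme, 2 groups of 5 peaks had no member at 1.5 h, on chromosome 10 (105531201 to 105547449) and chromosome 12 (51526551 to 51539049). None of the TTF-1 peaks in these groups had a Smad3 siControl peak. Their lowest peak numbers were 13847 and 17620 of 31083. All of these regions were named after their values were seen.

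Across chromosomes the share of 0 h peaks called again was between 58.5% on X and 69.0% on chromosome 10, against 65.3% in all. The X chromosome share (55.2 to 61.6; 946 peaks) was below the 63.4% that its peak numbers alone would give from the rates of the whole list in 20 strata. Chromosome 13 was also below, at 60.8% (57.4 to 64.1) against 64.2%, a value barely past the end of that interval. Chromosome 19, with 60.4% (56.4 to 64.4), was near the 60.5% of its numbers. The share of 1.5 h peaks without a 0 h peak was 6.09% on X and between 2.94% (chromosome 17) and 5.53% (chromosome 9) on the autosomes. Chromosomes named here were picked after their values were seen.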

How the data were processed

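The deposited lists hold peaks called by the authors on single libraries, per the labels, at false discovery rate limits of 1% (TTF-1 and H441 Smad3), 5% (A549) and 10% (Smad4). Per the submitters' processing notes the genome build was hg18. The aligner and the caller are not named in those sources. The deposited score was 1000 for every peak and was not used. A track line (1 in all) was skipped, and 1 was added to each deposited start. The members, lists and comparisons were chosen with earlier results of these data known. Named peaks were the 3 widest and the first 3 by number of each class and the 3 pairs with the largest width change in each direction, others being marked as chosen later. Overlap was at least 1 bp. Depth is unknown. Analyses of gene loci, genomic features and motifs need an hg18 annotation or genome and were not run. Weighted shares, changes of place and groups were added after the data were seen. Weighted shares have normal 95% intervals, and all others are exact. Python 3.11.15, NumPy 2.4.6, pandas 2.3.3 and SciPy 1.17.1 were used, and overlaps were tested on simulated data with bedtools 2.31.1. Alternatives were other overlap rules, shortened or merged lists and other strata.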

Additional observations from a re-analysis of the deposited data

How the results depend on the processing

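The shares of 0 h and 1.5 h peaks called at the other time were 63.7% and 95.3% with 50% of the peak covered, 62.4% and 91.1% with centres within 200 bp, 67.0% and 96.4% with edges within 500 bp, 64.3% and 94.0% in the wider 50% of each list, and 65.9% and 96.1% after merging. Shortening the 0 h list to the length of the 1.5 h list changed them most, to 85.05% and 85.8% by peak number and 79.1% and 79.85% by width, since the 0 h list then holds fewer peaks. Autosomes alone and the left-out cluster moved neither value beyond its interval. With centres within 200 bp, Smad3 siControl peaks were at 9.71% of the 0 h only and 33.2% of the 1.5 h only sites, and the 1.5 h only median width was 499 bp. That rule counted 91.1% of 1.5 h peaks as shared, against 95.8% with 1 bp, so its 1.5 h only class is another and larger set. The Smad3 siControl share of 1.5 h only sites thus depends on how the class is drawn. The cause was not tested. With the 0 h list shortened by number, Smad3 siControl was at 7.48% of 0 h only, 36.7% of shared 0 h, 20.5% of 1.5 h only and 36.6% of shared 1.5 h peaks. The median widths of 0 h only, shared 0 h, 1.5 h only and shared 1.5 h peaks were then 449, 699, 399 and 649 bp. Pair widths kept their values within the intervals under both other pairings. With 5 strata of the mean place, all 4 Smad lists remained higher in the earlier pairs in all 5 strata. No paired analysis was possible because each time has 1 library. Alternatives for locus windows, promoter windows and motif windows were not run. Peak lists without read counts set no limit of detection, so a site missing from a list may lie just under the threshold of the caller.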

Other observations

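In windows of 1 Mb, TTF-1 peaks were present at both times in 2481 of 2575 windows, at 0 h only in 85 and at 1.5 h only in 9, and no window of the 85 held more than 7 peaks. In the 862 windows with at least 15 peaks at 0 h, the share called again had a median of 66.7%. The lowest was 106000001 to 107000000 on chromosome 4, with 16 peaks at 0 h and 4 at 1.5 h. Next came 38000001 to 39000000 on chromosome 17, with 15 and 4. All 15 peaks were called again in the window 90000001 to 91000000 on chromosome 12, and 19 of 20 at 237000001 to 238000000 on chromosome 2. The most peaks called only at 1.5 h in 1 window were 4, among others at 19000001 to 20000000 on chromosome 11, beside 37 peaks at 0 h. All of these windows were named after their values were seen.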
